A study of Drosophila melanogaster with 93 samples.

Results

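The odorant receptor (Or) genes of *Drosophila melanogaster* were examined for H3K9me3, the trimethylated lysine 9 of histone H3 that marks repressed chromatin. Members were taken as every gene of the dm6 annotation whose symbol is Or followed by digits and a letter, which gave 60 of 18164 genes. Of these, 59 are protein coding and 1, *Or98P*, is annotated as a pseudogene. There are 10 members on 2L, 15 on 2R, 11 on 3L, 16 on 3R and 8 on X. An intact Or gene encodes a membrane protein that pairs with the co-receptor Orco to form an odour-gated channel. As a rule, an olfactory neuron of the antenna or maxillary palp expresses 1 such receptor or a small set of them and keeps the rest silent. H3K9me3 is one of the marks known to be laid down on silent olfactory receptor genes in the mouse. The readout was the percent of each gene, with 3 kb on either side, that lay under the peaks called in a library.

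The chromatin came from neurons that express tagged histone H2B (Chromatag, with *BirA* for biotinylation), and the tagged chromatin was captured after a first precipitation with H3K9me3 antibody. Flies of all 8 groups were *w* and carried *P[UAS-Chromatag]* over an amplifying *UAS-Gal4* insertion, *P[w+mC, UAS-Gal4]*, and differed in the driver, which was *fru P1-Gal4/+* or *elav-Gal4/+*. The *fru P1* neurons, which express the sex-specific Fruitless transcription factor in males, were sampled in both sexes, as whole pupae at 48hr APF and as heads of adults aged 1 day or 10–12 days. The *elav* driver, active across neurons, was used for heads of 1-day adults of both sexes. Each group had 4 libraries except 10–12 day females, which had 3, and each library was made from pooled flies. Every value is therefore a mean over many neuron types, and olfactory neurons are only some of them. These lists hold no RNA, so the cell type labels could not be checked against marker expression. Stage was confounded with tissue and *elav* libraries were shallower, with 2295291 to 3012794 tags after filtering. The *fru P1* libraries had 3856798 to 6306013, apart from 1 library of 10–12 day males with 2119672.

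Sequences are shown first for the promoters whose peak cover differed most clearly among groups or genes. Each runs 5′ to 3′ along the coding strand from 250 bases before the annotated 5′ end to 50 bases after it, and capitals mark the bases from the 5′ end on. In every promoter printed here these bases open with ATG, so the annotated end may be a start codon and not a transcription start. They were read from RefSeq's Release 6 assembly, which is dm6. *Or33c* lies on 2L (+ strand), and its promoter (chr2L:11937719-11938018) was touched by a peak in 8 of 8 *fru P1* libraries at 1 day, in 3 of 8 at 48hr APF and in 0 of 7 at 10–12 days. *Or65a* (chr3L:6320361-6320660, + strand) had one in 7 of 8 libraries at 1 day, in 2 of 8 at 48hr APF and in 5 of 7 at 10–12 days. *Or85a* (chr3R:8321497-8321796, + strand) had one in 8 of 8, 2 of 8 and 5 of 7. *Or67d* (chr3L:10272954-10273253, + strand) had a promoter peak in 6 of all 31 libraries and is shown as a counterpart.
Or33c promoter: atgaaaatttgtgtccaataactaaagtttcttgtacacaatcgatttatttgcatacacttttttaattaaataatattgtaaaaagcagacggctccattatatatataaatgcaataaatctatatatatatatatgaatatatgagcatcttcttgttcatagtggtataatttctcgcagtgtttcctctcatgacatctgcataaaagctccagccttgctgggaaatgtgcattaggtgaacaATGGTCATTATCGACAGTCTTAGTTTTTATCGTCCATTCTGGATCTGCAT
Or65a promoter: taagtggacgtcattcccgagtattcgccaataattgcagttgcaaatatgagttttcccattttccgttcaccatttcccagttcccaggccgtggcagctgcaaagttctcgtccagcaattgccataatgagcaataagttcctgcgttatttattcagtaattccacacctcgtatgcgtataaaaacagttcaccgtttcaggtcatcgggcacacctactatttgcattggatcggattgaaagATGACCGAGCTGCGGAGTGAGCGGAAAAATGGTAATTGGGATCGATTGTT
Or85a promoter: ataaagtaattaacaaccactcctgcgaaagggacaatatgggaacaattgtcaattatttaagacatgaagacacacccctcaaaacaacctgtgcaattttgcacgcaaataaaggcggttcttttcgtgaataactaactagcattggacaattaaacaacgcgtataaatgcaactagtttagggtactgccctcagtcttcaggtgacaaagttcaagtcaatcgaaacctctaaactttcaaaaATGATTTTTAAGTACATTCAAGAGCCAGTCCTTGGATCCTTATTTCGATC
Or67d promoter: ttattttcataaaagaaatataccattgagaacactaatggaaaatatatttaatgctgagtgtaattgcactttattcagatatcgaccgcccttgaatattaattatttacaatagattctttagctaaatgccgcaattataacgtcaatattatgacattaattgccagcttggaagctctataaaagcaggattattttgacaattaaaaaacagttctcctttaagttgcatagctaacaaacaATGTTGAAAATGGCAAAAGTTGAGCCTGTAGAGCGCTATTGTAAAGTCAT

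The next 2 stretches were covered by peaks in 26 of 31 libraries, which no base in any member's window exceeded, and are the longest of those that reached this number. The first lies at −1199 to −1025 bases from the 5′ end of *Or85a* (chr3R:8320548-8320722) and the second at −1653 to −1516 bases from that of *Or98b* (chr3R:28350589-28350726). Both are written along the + strand with no capitals. The body of *Or85a* overlaps another gene, *Poxm*, and the part of that gene in the first stretch was not tested.
Or85a upstream stretch: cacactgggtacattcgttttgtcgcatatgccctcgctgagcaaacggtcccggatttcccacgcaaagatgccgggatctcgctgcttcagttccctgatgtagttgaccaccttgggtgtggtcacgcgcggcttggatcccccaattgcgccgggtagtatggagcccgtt
Or98b upstream stretch: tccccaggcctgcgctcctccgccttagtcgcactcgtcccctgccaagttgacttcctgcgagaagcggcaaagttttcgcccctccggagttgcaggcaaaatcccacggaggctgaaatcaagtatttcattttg

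The third set is a pair of near-identical promoters. *Or19b* (chrX:20094148-20094447, + strand) and *Or19a* (chrX:20143139-20143438, − strand) encode copies of a receptor known for its response to limonene. Their promoters differ at 1 of 300 bases, A83C (*Or19b* first, counted from the first printed base), which is the base in capitals. Their gene bodies are 99.5% identical, with 7 mismatches over 1370 bases and no gap, and 74.9% of the 50-base words in either body also occur elsewhere in the genome.
Or19b promoter: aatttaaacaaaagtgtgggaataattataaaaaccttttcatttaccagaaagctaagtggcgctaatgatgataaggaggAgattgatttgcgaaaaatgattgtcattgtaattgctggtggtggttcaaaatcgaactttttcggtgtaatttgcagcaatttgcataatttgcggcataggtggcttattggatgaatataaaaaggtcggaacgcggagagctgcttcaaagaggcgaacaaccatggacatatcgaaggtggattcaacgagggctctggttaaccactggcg
Or19a promoter: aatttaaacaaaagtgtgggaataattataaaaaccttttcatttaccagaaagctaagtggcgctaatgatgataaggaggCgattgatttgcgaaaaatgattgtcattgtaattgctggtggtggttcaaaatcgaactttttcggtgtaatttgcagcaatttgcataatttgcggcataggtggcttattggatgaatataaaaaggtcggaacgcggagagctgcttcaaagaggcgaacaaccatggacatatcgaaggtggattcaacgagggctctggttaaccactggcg

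The authors kept only reads that aligned at 1 place in the genome. No peak touched the body or the promoter of *Or19a* or *Or19b* in any of the 31 libraries, and they were the only 2 members of which this was so. What cover they had lay in their flanks, and the part of the repeated words in this was not tested. Repeated words made up over 10% of the window in 6 members, and *Or82a* had the largest share at 37.5%, all of it outside the body. Only 10 of the 60 windows held any repeated word.

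As background to the levels, Or genes are small and scattered, and their bodies measured 326 to 3956 bp with a median of 1458 bp. Part of another gene lay in 47 of the 60 windows, part of another member in 15, and 19 members overlapped another gene with their bodies. Coverage of a window is thus partly that of its neighbours. Peaks were broad and weak. The 3427 peaks that touched a member's window had a median fold enrichment of 1.52 and a median length of 1091 bp, against 1.51 and 938 bp over all 738735 peaks. The highest fold enrichment in a member's window was 2.46, over *Or10a* in *elav* males replicate 3. Only 1 of the 3427 had a q-value under 0.05, in the window of *Or85a* in 1-day *fru P1* females replicate 4, as did 658 of all peaks.

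H3K9me3 peaks were found at nearly every member, as they were at most genes. Every member had a peak in at least 1 library, as did 98.0% of all genes. A peak was present in all 15 female libraries at 35 members, or 58.3%, and at 43.6% of all genes. In single libraries, 49 to 60 members had a peak, which is 81.7% to 100% of them where all genes had 67.6% to 94.7%, and the members' share was the higher in 28 of 31 libraries. No member was covered to 90% in every female library. Over the 15 female libraries, mean cover of the 52 autosomal members ran from 15.6% to 60.5% with a median of 32.3%, and the median over all autosomal genes was 22.6%. Of the 52, 45 lay above that all-gene median and 10 lay above 90% of autosomal genes. Over the 16 male libraries the medians were 39.1% for autosomal members and 24.0% for all autosomal genes. On X, the 8 members had a median of 19.8% in females where all X genes had 20.0%. The corresponding male medians were 3.06% and 2.94%.

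**Figure D1:**
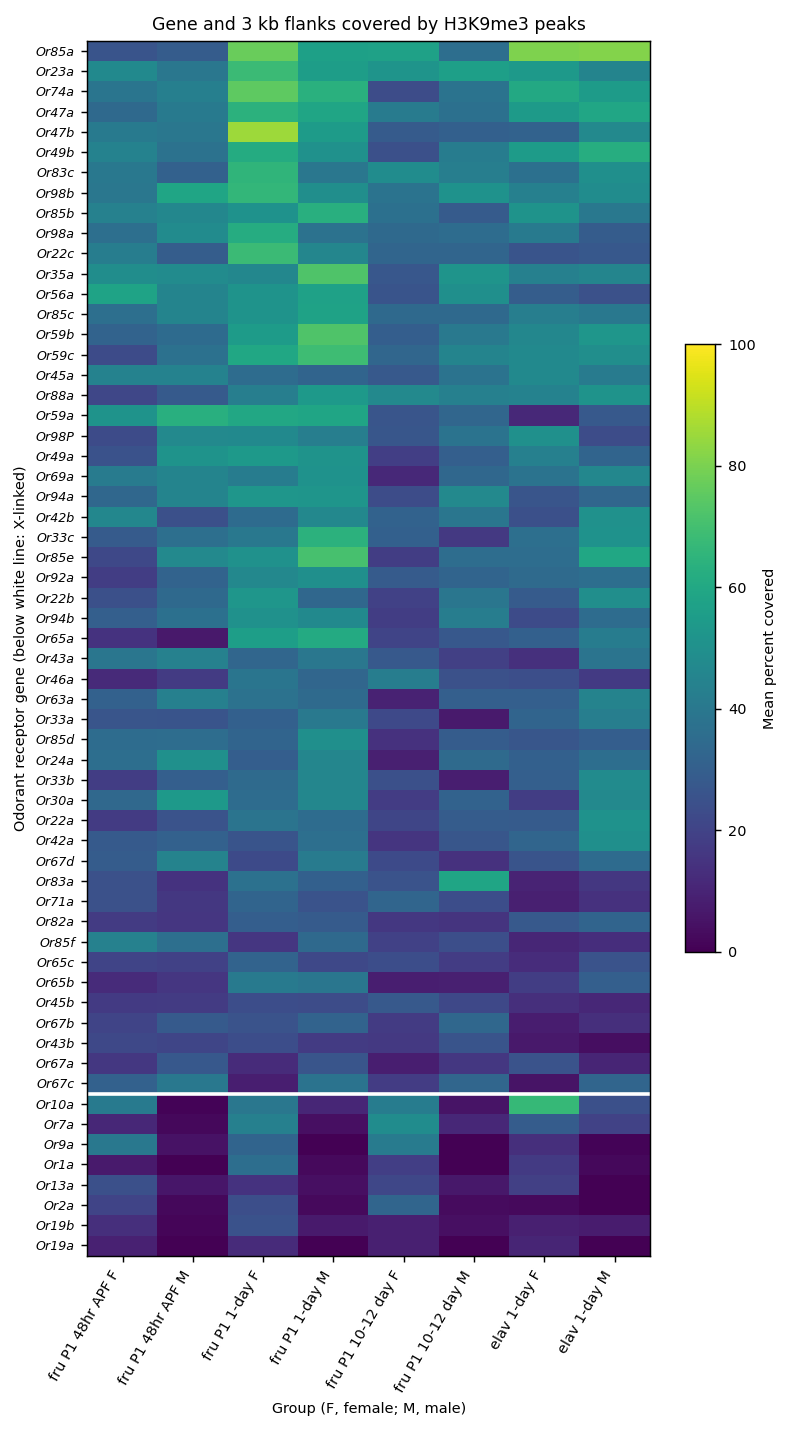
Mean percent of the gene and its 3 kb flanks covered by H3K9me3 peaks (colour, 0 to 100) for the 60 odorant receptor genes (rows, sorted by mean over female libraries within autosomes and X) in the 8 groups (columns, 3 or 4 libraries each). The column of 1-day *fru P1* females holds 85.5% for *Or47b*, and the male columns are dark below the white line that sets off the X-linked genes.

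The 5 members with the highest female mean were *Or85a* at 60.5% ± 25.8 (SD, n = 15), *Or23a* at 55.5% ± 18.8, *Or74a* at 51.1% ± 27.8, *Or47a* at 49.1% ± 22.5 and *Or47b* at 47.9% ± 27.3. *Or85a* and *Or47a* are receptors of antennal basiconic sensilla, which detect food odours. *Or23a* and *Or47b* belong to trichoid and intermediate sensilla, and *Or74a* is expressed in the larva. The mean of *Or85a* exceeded that of 98.8% of autosomal genes. The bodies of *Or85a*, *Or23a* and *Or47a* overlap *Poxm*, *Prosbeta4R2* and *Cpr47Ea* in that order, so their cover is not that of the receptor genes alone. In all 5 the spread between libraries was wide, and 2 of them, *Or85a* and *Or74a*, were at 0 in 1 female library each.

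The 5 lowest were *Or19a* at 10.3% ± 8.88, *Or19b* at 14.5% ± 9.68, *Or67c* at 15.6% ± 12.9, *Or67a* at 16.1% ± 10.4 and *Or43b* at 17.3% ± 11.8 (SD, n = 15). *Or67c*, *Or67a* and *Or43b* are basiconic receptors. *Or19a* and *Or19b* are X-linked, and no peak touched their bodies, in which 74.9% of the 50-base words are repeated. The part of these repeats in their low rank was not tested. Both sets of 5 were picked by these means, and the SDs pool stages and cell types. They therefore do not test a difference between members.

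Within a window, cover was highest over the body in 32 members, over the 3 kb beyond the 3′ end in 18 and over the 3 kb before the 5′ end in 10. Median cover in female libraries over the 52 autosomal members was 30.5% upstream, 39.9% over the body and 32.1% downstream. Over 11698 other autosomal protein-coding genes it was 20.0%, 22.4% and 21.3%. The 300-base promoter window was touched by a peak in a median of 12 of 31 libraries and at most 22.

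Groups of receptors that share a sensillum type had similar levels. Among autosomal members, the median of the female means was 32.2% for 21 antennal basiconic receptors, 31.1% for 9 trichoid and intermediate receptors, 32.9% for 12 receptors known only from the larva and 28.4% for 7 receptors of the maxillary palp. *Or35a*, the one receptor of coeloconic sensilla, had 42.4%. The ranges overlapped widely, from 15.6% to 60.5% among basiconic and from 24.1% to 41.2% among palp receptors. By chromosome arm the members' median ran from 24.1% on 3L to 38.0% on 2R, where the medians over all genes of the autosomal arms differed less, from 22.2% to 24.1%.

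Tandem copies were described as groups with bodies within 10 kb of each other, and 18 members fell in 8 such groups. The pair *Or85b* and *Or85c* had the highest female mean at 44.0%. The trio *Or65a*, *Or65b* and *Or65c*, which at4 trichoid neurons express together, had the lowest at 24.6%. Their windows overlap in part, so members of a group are not independent measurements. Window GC ran from 37.1% to 47.4%. Across the 52 autosomal members, which share the same libraries and in part the same bases, Spearman's rho between GC and female cover was 0.34 and between length and cover −0.13.

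Motifs were searched in the promoter windows as a description. The sequence CTTATAA, on either strand, is known as an element of palp receptor promoters. It was found in 8 of 60 members (13.3%) and in 5.59% of 13946 promoters, and it occurred in 4 of 7 palp receptors (*Or42a*, *Or46a*, *Or59c* and *Or85e*). The second known palp element, CTA and TAA set 9 bases apart, was found on either strand in 25.0% of members and 17.7% of promoters. It was in 3 of the 7 palp receptors.

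Across stages, the family was most covered in 1-day *fru P1* adults. The median over autosomal members was 30.1% ± 4.19 in females and 35.2% ± 3.94 in males at 48hr APF (SD, n = 4). At 1 day it was 42.4% ± 2.61 and 45.0% ± 5.68. At 10–12 days it was 23.7% ± 0.793 in females (n = 3) and 31.6% ± 4.45 in males. In females the ranges of the stages did not overlap, from 26.7% to 35.3%, from 39.7% to 45.8% and from 22.8% to 24.2%. The medians over all autosomal genes moved less, to 21.3%, 27.4% and 23.5% in females and 20.2%, 28.2% and 26.3% in males.

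**Figure D2:**
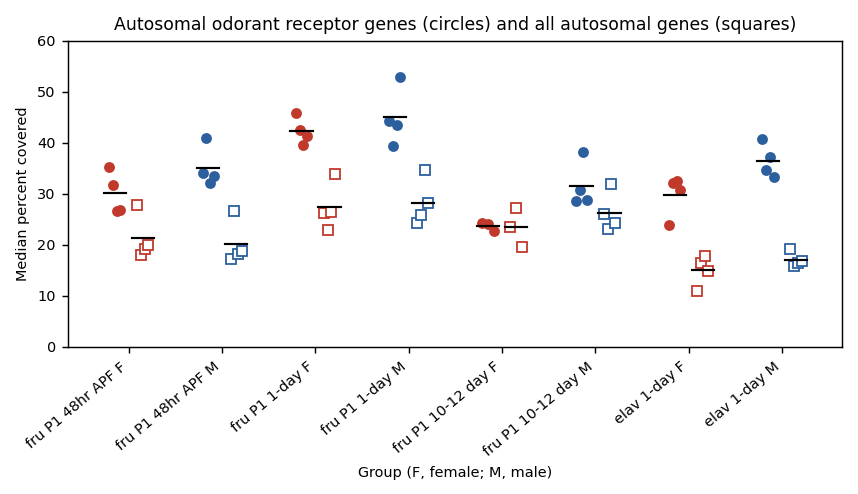
Median percent of the window covered in each library, over the 52 autosomal odorant receptor genes (filled circles) and over all autosomal genes (open squares), by group, with the group mean as a bar (red, female; blue, male). The circles of 1-day *fru P1* adults lie between 39.3% and 52.9%, and in 10–12 day females circles and squares overlap.

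The member median exceeded the all-gene median in 30 of 31 libraries. At 48hr APF the gap was 8.87 ± 3.32 points in females and 15.0 ± 1.34 in males (SD). It was 15.0 ± 5.87 points in 1-day *fru P1* females and 16.8 ± 7.01 in males, and 0.27 ± 3.12 and 5.27 ± 2.15 points at 10–12 days. In males the gap at 48hr APF was thus within the spread of that at 1 day. In *elav* neurons it was 14.8 ± 1.39 in females and 19.4 ± 2.27 in males. The other chemoreceptor families had gaps of the same order. For gustatory receptor genes it was 15.4 ± 4.67 in 1-day and −0.68 ± 5.79 points in 10–12 day *fru P1* females. For ionotropic receptor genes it was 19.8 ± 7.45 and 4.66 ± 1.83. Their difference from odorant receptors was not tested.

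Single members were tested with limma on the percent covered, fitted over 17491 genes with a mean of at least 5%, which all 60 members reached. A member was called at a Benjamini-Hochberg adjusted p of 0.05 or less over all these genes, and differences are in percentage points. From 48hr APF to 1-day adults, 9 members rose in females, where 12.1% of all genes did, and 1 fell, where 2.18% did. In males 2 members rose, where 6.27% of all genes did. These shares are close to the background or below it. The median difference over the 60 members was 12.1 points in females, against 5.89 over all genes tested, and 9.16 against 5.49 in males.

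*Or65a* rose in both sexes. This receptor of at4 trichoid neurons, reported to respond to the male pheromone cVA, spans 6320611 to 6322098 on 3L (+ strand). In 48hr APF females its values were 19.0%, 21.5%, 17.6% and 0%, and in 1-day females 57.8%, 54.8%, 54.7% and 57.5%. In males they were 4.42%, 21.3%, 1.76% and 0%, then 31.2%, 66.2%, 87.3% and 60.5%. The stages did not overlap in either sex. The difference was 41.7 ± 11.1 points in females (SE, adjusted p = 0.012) and 54.4 ± 11.1 in males (adjusted p = 0.0028), and neither call was lost with any 1 library left out. With each library scaled to its mean cover of autosomal genes, the male rise of *Or65a* was still called and the female rise was not. Its neighbour *Or65b* rose in females by 28.7 ± 8.27 points (adjusted p = 0.020), a call also lost under that scaling.

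Along *Or65a*, the cover of 1-day adults was high before and at the 5′ end and again beyond the 3′ end, and low in the last part of the body. With the body alone, the group means in females were 17.9% at 48hr APF and 22.6% at 1 day. In males they were 0.353% and 46.2%.

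*Or47b* is the receptor of at4 neurons that detects fly-derived fatty acid esters and promotes male courtship, and its neurons express *fru P1*. It spans 11319710 to 11321312 on 2R (− strand). Its window was covered at 59.0%, 35.9%, 16.9% and 52.8% in 48hr APF females and at 79.9%, 81.9%, 81.0% and 99.1% in 1-day females. At 10–12 days it was at 45.9%, 15.7% and 24.8%. The 1-day females stood above every other female library of *fru P1* neurons. The gene rose by 44.3 ± 13.1 points from 48hr APF (SE, adjusted p = 0.022) and fell by 56.7 ± 14.1 points to 10–12 days (adjusted p = 0.011). The first call was lost without 48hr APF replicate 2 or 3 or 1-day replicate 4, and the second without 10–12 day replicate 3. Neither was called with each library scaled to its mean cover of autosomal genes.

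In males the 1-day values of *Or47b* were 18.3%, 37.3%, 84.0% and 80.7%, which overlapped those of 48hr APF (10.9% to 59.5%) and of 10–12 days (20.6% to 58.0%). Neither male difference passed the test, at 15.6 ± 13.1 points (adjusted p = 0.54) and −24.6 ± 13.1 points (adjusted p = 0.26). The male and female changes were also set against each other in a test of the difference, and no member passed it for any pair of stages or for cell type, with 6, 3, 4 and 8 members at an unadjusted p under 0.05 (10.0%, 5.00%, 6.67% and 13.3%, where all genes had 6.87%, 7.78%, 7.49% and 5.03%). No difference between the sexes in a stage effect was therefore called for *Or47b* or any other member.

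*Or85a*, a receptor of ab2 basiconic neurons, had the largest of the called rises in females, in a window shared with *Poxm*. Its values went from 42.4%, 34.8%, 0% and 26.5% to 71.3%, 74.2%, 75.7% and 87.6%, a difference of 51.3 ± 10.7 points (SE, adjusted p = 0.0022). In males the difference was 27.6 ± 10.7 points (adjusted p = 0.11). The other members that rose in females were *Or74a* (36.4 ± 12.6 points), *Or59c* (36.8 ± 11.9), *Or7a* (32.5 ± 7.19), *Or1a* (28.9 ± 5.41) and *Or22b* (28.2 ± 9.81). *Or74a* and *Or1a* are larval receptors, *Or59c* is of the palp, and *Or7a* and *Or22b* are antennal basiconic receptors. In males *Or59b*, which lies next to *Or59c* and detects acetate esters, rose by 37.7 ± 11.9 points (adjusted p = 0.049). Of these calls, those of *Or74a*, *Or22b* and *Or59b* were lost in 22, 21 and 20 of the 31 fits that leave out 1 library, and that of *Or59c* in 4. With each library scaled to its mean cover of autosomal genes, the rises of *Or7a* and *Or1a* were still called. That of *Or85a* and the others in this paragraph were not.

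*Or85f*, a basiconic receptor, went the other way in females. Its values were 64.8%, 21.3%, 41.9% and 48.1% at 48hr APF and 2.76%, 17.1%, 16.8% and 26.4% in 1-day adults, which overlap by 1 library. It fell by 28.3 ± 7.73 points (SE, adjusted p = 0.014), a call lost without replicate 1 of either group. In males the means were 36.5% and 34.2%.

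**Figure D3:**
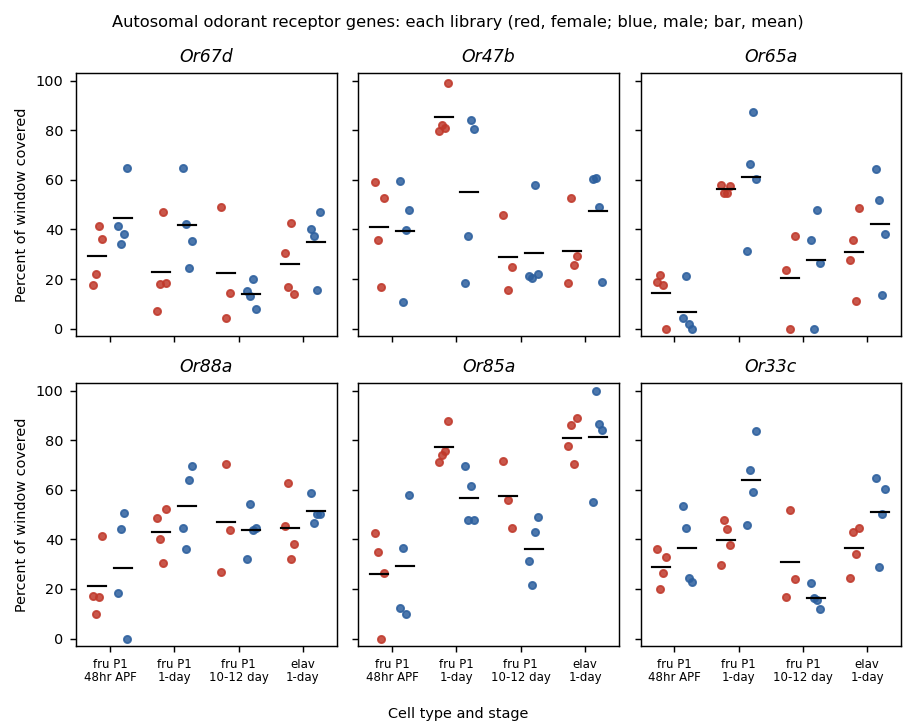
Percent of the window covered in every library for 6 autosomal odorant receptor genes, by cell type and stage (red, female; blue, male; bar, group mean of 3 or 4 libraries). The 1-day *fru P1* points of *Or65a* lie between 31.2% and 87.3%, above all points at 48hr APF, and for *Or33c* the 10–12 day males lie between 12.0% and 22.5%.

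From 1-day to 10–12 day *fru P1* adults, 8 members fell in females, where 7.47% of all genes did, and 5 fell in males, where 3.9% did. None rose, where 4.2% of all genes rose in females and 2.21% in males. The median difference over the members was −16.9 points in females and −9.15 in males, against −3.83 and −1.36 over all genes tested. Besides *Or47b*, the falls in females were of *Or74a* (−51.7 ± 13.6 points), *Or65a* (−35.9 ± 12.0), *Or22c* (−35.4 ± 11.4), *Or22b* (−33.2 ± 10.6), *Or65b* (−32.2 ± 8.93), *Or1a* (−17.9 ± 5.84) and *Or19b* (−16.3 ± 5.32). In 16 of the 60 members every 10–12 day female was below every 1-day female, a larger share than the 15.5% of genes tested. Among these 16 were 6 of the 8 called. The share over all genes was computed for this comparison alone, and members with overlapping windows were counted separately. The call of *Or65a* was lost in 17 of the 31 fits that leave out 1 library. The windows of *Or65a* and *Or65b* overlap, so their falls are not independent. *Or65a*, *Or65b*, *Or22b*, *Or47b*, *Or74a* and *Or1a* were called in both female comparisons, which share the 1-day libraries.

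In males the falls were of the *Or33* tandem trio and of 2 other members. The windows of the trio overlap, so its falls are not independent and count 1 locus more than once. *Or33c* went from 45.9%, 67.8%, 59.0% and 83.6% to 22.5%, 16.3%, 15.3% and 12.0%, with no overlap. The difference was −47.6 ± 9.09 points (SE, adjusted p = 0.0040). *Or33b* fell by 37.7 ± 9.26 points and *Or33a* by 33.1 ± 9.82, and 2 of their 4 libraries at 10–12 days were at 0. The fall of *Or33a* lay outside the gene, since with the body alone it was 0.56 points higher at 10–12 days, and 3.06 points higher within 1 kb of the 5′ end. *Or85e* fell by 35.5 ± 10.2 points (adjusted p = 0.034), with 1-day values of 71.3%, 70.7%, 69.2% and 73.2% and 10–12 day values of 20.7%, 42.3%, 33.9% and 45.5%. *Or33c* and *Or85e* lie on different arms and are known to be expressed together in pb2A neurons of the palp. *Or65b* fell by 30.4 ± 8.27 points. Of the 31 fits that leave out 1 library, 6 lost the call of *Or33a*, 6 that of *Or85e*, 4 that of *Or65b*, 1 that of *Or33b* and 0 that of *Or33c*.

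In females the corresponding values of *Or33c* were 29.8% to 47.8% and 16.8% to 51.7%, and its difference was −9.09 ± 9.82 points (adjusted p = 0.56). At 1 day the body of *Or33c* was covered to between 52.4% and 100% in all 8 libraries. As a group mean it was covered to 90.3% in 1-day females and 88.1% in 1-day males, and to 35.7% and 6.75% at 10–12 days.

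**Figure D4:**
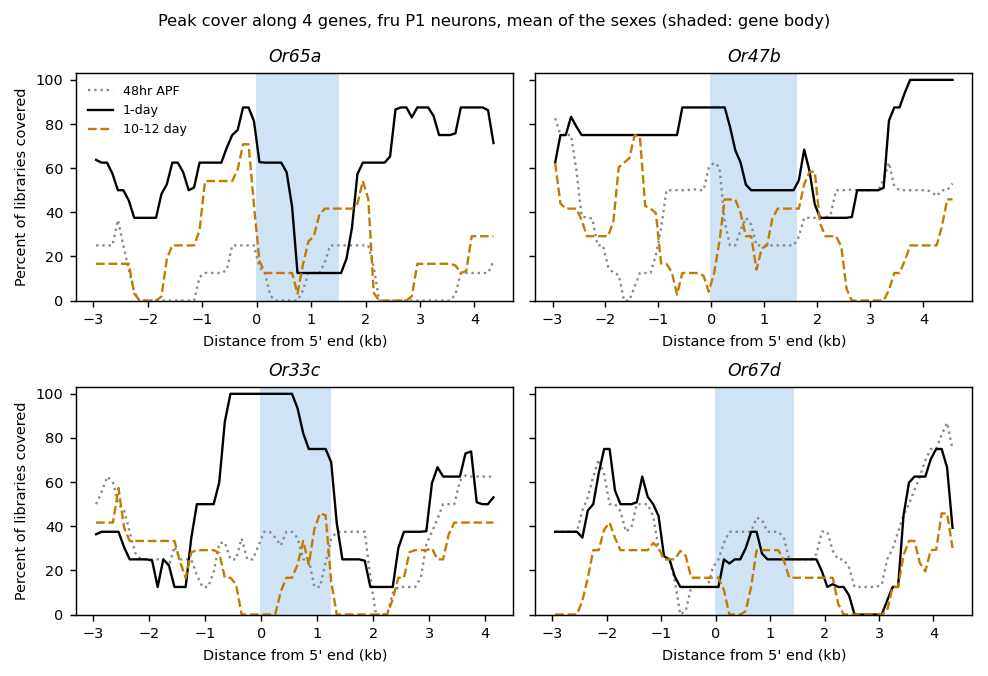
Percent of *fru P1* libraries with a peak at each position, in 100-base bins, against the distance from the 5′ end in kb along the coding strand, as the mean of the 2 sexes, for 4 odorant receptor genes (dotted, 48hr APF; solid, 1-day; dashed, 10–12 day; shaded, gene body). The solid line of *Or33c* is at 100% at the 5′ end where the dashed line is at 0, and that of *Or65a* drops inside the body.

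Between the earliest and the latest stage, few members were called on the percent as computed. The median difference over the members was −3.32 points in females and −0.368 in males, against 2.52 and 4.25 over all genes tested. Among males *Or83a*, a larval receptor, rose from 0%, 45.0%, 0% and 13.8% at 48hr APF to 75.2%, 46.0%, 70.2% and 43.2% at 10–12 days, by 44.0 ± 10.6 points (SE, adjusted p = 0.027), where 1.67% of all genes rose. The ranges overlapped, and the call was lost without replicate 1 or 3 of either group or replicate 4 of 48hr APF. Among females *Or7a* rose by 37.5 ± 7.76 points (adjusted p = 0.0080), where 1.54% of all genes rose. Over all 6 stage comparisons there were 27 calls among members, 13 of them upward. The number was 10, 5 of them upward, when each library was scaled to its mean cover of autosomal genes, and 16 without 1-day *fru P1* females replicate 1. Under the scaling, *Or33c* in males was the only member called between 1-day and 10–12 day adults. Between 48hr APF and 10–12 days, *Or43a* and *Or67d* in males and *Or85f* in females were called lower under it. The rises of *Or83a* in males and *Or7a* in females were still called. Tissue cannot be told apart from stage in the 4 comparisons with 48hr APF, while both adult stages were heads. The part of input and library-wide cover in these values was not tested beyond the scaling.

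*Or67d*, the receptor of at1 neurons for the pheromone cVA, whose neurons express *fru P1*, was not called in any comparison on the percent as computed. It spans 10273204 to 10274624 on 3L (+ strand). Its female values were 17.4% to 41.5% at 48hr APF, 7.17% to 47.1% in 1-day adults and 4.34% to 49% at 10–12 days. Its male values were 33.9% to 64.8%, 24.3% to 64.9% and 8.00% to 20.2%. Every 10–12 day male was below every younger male. The differences were −30.4 ± 10.1 points from 48hr APF (SE, adjusted p = 0.10) and −27.5 ± 10.1 from 1-day (adjusted p = 0.090). With libraries scaled to their autosomal mean the first was −37.9 points and passed (adjusted p = 0.048). In female libraries cover was 34.6% upstream, 18.3% over the body and 19.4% downstream.

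*Or88a*, which at4 neurons use to detect fly odours, was not called either. It spans 14109445 to 14110823 on 3R. Its group means ran from 21.2% ± 13.8 in 48hr APF females to 53.6% ± 15.7 in 1-day males (SD, n = 4). The largest differences were 25.8 ± 11.2 points between 48hr APF and 10–12 day females (SE, adjusted p = 0.24) and 25.3 ± 10.4 between 48hr APF and 1-day males (adjusted p = 0.13).

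Between the sexes, fewer bases of the X-linked members lay under peaks in males. A general limit applies here, since DNA of the male X was recovered and sequenced but few peaks were called anywhere on it, and the authors' other settings and a second caller did not change that. A male value of 0 therefore says that no peak was called, not that the mark was absent. All 8 had a higher mean over the 15 female than over the 16 male libraries, and 76 of their 128 male values were 0 against 12 of 120 female values. This was so for X genes in general. At 48hr APF, 2 of 8 were called lower in males, where 30.9% of X genes were. In 1-day *fru P1* adults it was 5 of 8, where 52.4% were. At 10–12 days it was again 5 of 8, where 52.4% were. In *elav* neurons it was 1 of 8, where 22.4% were. No X-linked member was called higher in males.

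*Or10a*, the receptor of ab1 neurons for methyl salicylate, had the highest X-linked level and was called in all 4 comparisons. Its body overlaps that of *Gr10a*, so the cover of this window is not that of *Or10a* alone. In females its values were 67.3%, 42.4%, 16.0% and 38.4% at 48hr APF, then 49.8%, 17.9%, 54.5% and 36.0% at 1 day, and 40.1%, 48.0% and 38.4% at 10–12 days. In males the highest value in any *fru P1* library was 17.1%. In *elav* neurons females had 63.4%, 77.4%, 73.8% and 52.8% and males 11.5%, 4.47%, 35.2% and 47.0%. The sexes did not overlap in any of the 4. The differences were −40.0 ± 9.19, −28.6 ± 9.19, −36.7 ± 9.93 and −42.3 ± 9.19 points in that order (SE, adjusted p = 0.0059, 0.048, 0.014 and 0.0038). The call at 1 day was lost in 22 of the 31 fits that leave out 1 library and kept in 1 of 9 other alternatives, and the calls at 48hr APF and 10–12 days were each lost in 1 such fit.

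*Or9a*, a receptor of ab8 neurons, was at 0 in all 8 males of 1-day and 10–12 day *fru P1* adults, where females had 19.7% to 55.4% and 28.9% to 50.4%. The differences were −32.2 ± 6.43 points and −41.5 ± 6.94 (SE, adjusted p = 7.1e-04 and 2.5e-04). At 48hr APF it was −35.1 ± 6.43 (adjusted p = 6.1e-04). *Or7a*, which detects green leaf aldehydes, was lower in males by 39.5 ± 7.19 points in 1-day and 37.3 ± 7.76 in 10–12 day adults. In *elav* neurons its means were 29.1% and 19.7%, and the sexes overlapped. *Or1a* was lower in males by 33.7 ± 5.41 and 18.4 ± 5.84 points at these stages, and the second call was lost in 18 of 31 fits without 1 library.

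*Or2a*, an intermediate sensillum receptor, was called only at 10–12 days (−29.4 ± 7.79 points, adjusted p = 0.013), and had 2.68% ± 3.76 even in *elav* females (SD, n = 4). *Or19b* was called only in 1-day *fru P1* adults (−18.0 ± 4.92 points, adjusted p = 0.015). *Or13a* and *Or19a* were not called, though *Or13a* was in *elav* neurons on the arcsine scale and with only the 2 groups fitted, at 48hr APF without female replicate 4 and at 10–12 days without female replicate 3, and *Or19a* was at 1 day on the arcsine scale. *Or13a* had 19.7% ± 11.5 over the female and 4.15% ± 7.14 over the male libraries, and *Or19a* had 10.3% ± 8.88 and 0.068% ± 0.27 (SD).

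**Figure D5:**
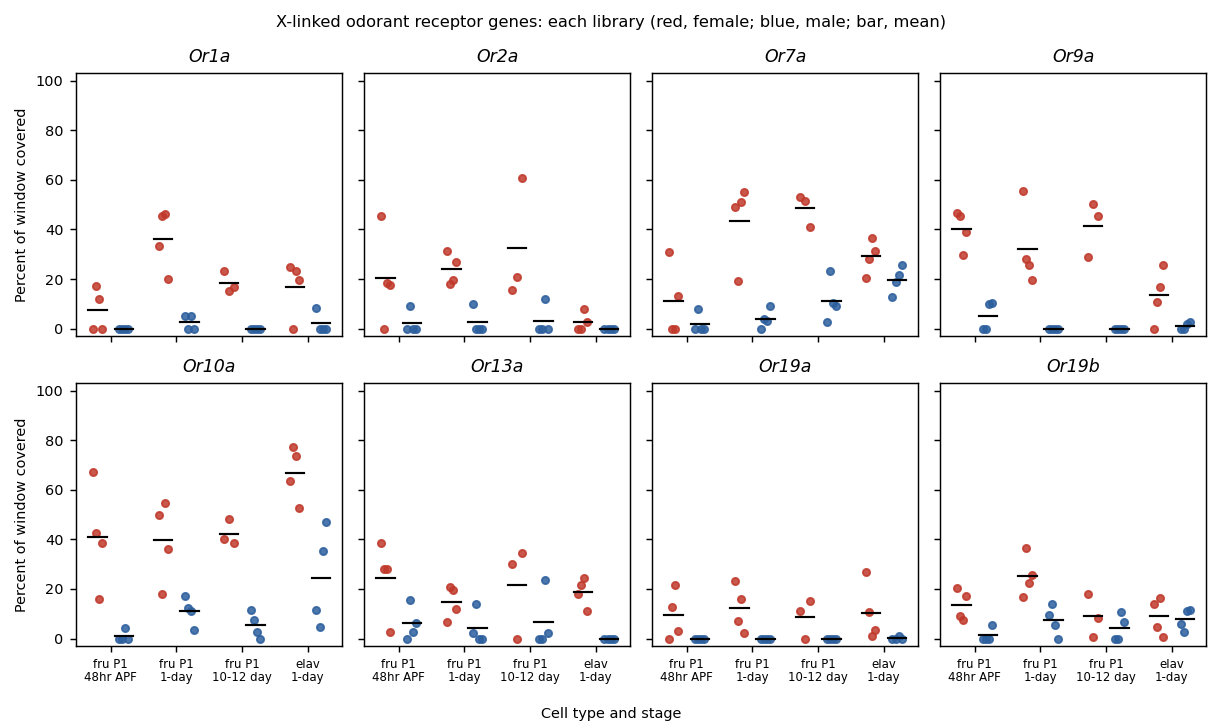
Percent of the window covered in every library for the 8 X-linked odorant receptor genes, by cell type and stage (red, female; blue, male; bar, group mean of 3 or 4 libraries). Blue points of *Or9a* are at 0 in both adult *fru P1* stages, and those of *Or10a* stay at or below 17.1% in *fru P1* neurons and reach 47.0% in *elav* males.

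Autosomal members did not follow this difference. The median difference over the 52 of them was 4.55 points at 48hr APF, −0.577 in 1-day adults, 7.84 at 10–12 days and 5.96 in *elav* neurons, against −0.593, 0.669, 2.78 and 1.06 over all autosomal genes. The calls were 0, 1, 0 and 0 of 52, where 0.448%, 0.501%, 0.909% and 0.12% of autosomal genes were called in either direction. At an unadjusted p under 0.05 they were 3, 8, 1 and 9, or 5.77%, 15.4%, 1.92% and 17.3%, where 6.83%, 5.06%, 7.72% and 3.11% of autosomal genes were.

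The called member was *Or67c*, a basiconic receptor of ab7 neurons (10243320 to 10244706 on 3L). In 1-day *fru P1* adults it had 7.28%, 8.50%, 18.4% and 0% in females and 47.1%, 26.4%, 29.0% and 49.6% in males, with no overlap. The difference was 29.5 ± 8.78 points (SE, adjusted p = 0.028). In *elav* neurons of the same age it had 0%, 10.2%, 0% and 11.5% in females and 40.1%, 16.8%, 19.7% and 53.8% in males, also without overlap, at 27.2 ± 8.78 points (adjusted p = 0.098). The differences were 9.03 ± 8.78 points at 48hr APF and 15.5 ± 9.48 in the oldest adults. The 1-day *fru P1* call was lost without female replicate 1, 2 or 4 or male replicate 1 or 4, where the difference was 25.6 to 29.5 points, and in 4 of 9 other alternatives. It was 24.4 points under scaling, 32.1 over the body, 10.5 with the 10000 peaks of smallest p and 0.812 within 1 kb of the 5′ end.

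Between cell types, 5 members were lower in *elav* than in *fru P1* neurons of 1-day females, where 6.52% of all genes were. Over the 60 members the median difference was −11.3 points in females and −8.08 in males, against −9.41 and −6.8 over all genes tested. In males 0 of 60 members were called, where 0.852% of all genes were, and 8 (13.3%) had an unadjusted p under 0.05, where 20.3% of all genes had. The largest difference was that of *Or47b*, which had 18.5%, 52.5%, 25.8% and 29.1% in *elav* females against 79.9% to 99.1% in *fru P1* females, without overlap. It was −54.0 ± 13.1 points (SE, adjusted p = 0.016). In males the difference was −7.80 ± 13.1 points (adjusted p = 0.79).

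*Or59a*, a larval receptor, was at 0%, 0%, 26.8% and 19.3% in *elav* females and at 50.6%, 60.7%, 47.0% and 81.1% in *fru P1* females, lower by 48.3 ± 13.4 points (adjusted p = 0.029). *Or22c*, also larval, was lower by 42.0 ± 10.5 points, *Or1a* by 19.4 ± 5.41 and *Or19b* by 16.3 ± 4.92. Without *elav* females replicate 1 none of the 5 was called. Without *elav* females replicate 2 or *fru P1* females replicate 4 there was 1 call, and without *elav* females replicate 4 there were 2. With each library scaled to its autosomal mean none of these 5 passed and 1 other member, *Or10a*, was called higher in *elav* females. *Or85a* had 77.5%, 86.3%, 70.3% and 88.8% in *elav* females, close to the 77.2% ± 7.20 of *fru P1* females (SD, n = 4). All-gene cover, depth and the kind of input differed between the drivers as well, so that cell type cannot be told apart from them.

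*Orco*, the co-receptor that nearly all these receptors need, spans 5407183 to 5412406 on 3R. It was not called in any of the 12 comparisons. Its group means ran from 26.8% ± 10.95 in 10–12 day males to 47.3% ± 12.5 in 1-day *fru P1* females (SD, n = 4). A list of 20 genes held olfactory co-receptors, pheromone detection genes, sensillum specification genes and transcription factors of receptor choice. Its calls between the sexes were of the X-linked *lz* and *acj6*, each lower in males in all 4 comparisons. The X-linked *Ir8a* was also called, lower in males of both adult *fru P1* stages. Of X genes, 22.4% to 52.4% were called lower in males in the 4 comparisons. The list's stage calls were *Gr21a* higher (35.3 ± 9.99 points) and *Gr63a* lower (−26.8 ± 8.65) in 1-day than in 48hr APF females. Of all genes, 12.1% rose and 2.18% fell there. *Gr21a* and *Gr63a* form the CO2 receptor. *Snmp2*, *ato* and *pdm3* fell from 1-day to 10–12 day males by 23.3 ± 7.24, 35.4 ± 10.7 and 22.9 ± 6.39 points, where 3.9% of all genes fell. *Xbp1* was higher in 10–12 day than in 1-day and 48hr APF females, by 20.3 ± 6.18 and 23.8 ± 6.18 points. Of all genes, 4.2% and 1.54% rose in these comparisons. *Ir8a* was lower in *elav* than in *fru P1* females by 28.9 ± 8.50 points, where 6.52% of all genes were. The calls of this list were not put through the alternatives or the fits that leave out 1 library.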

How the data were processed

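The 31 H3K9me3 peak lists were used, 1 per library, and the 62 libraries of other kinds in the samples given here were not analysed here. Reads were trimmed with Trimmomatic, aligned to dm6 with Bowtie2 2.2.5, kept if they aligned uniquely and peaks were called by the authors with MACS2 in broad mode at a p of 0.01 (0.1 for weak regions) against input, pooled over replicates for *fru P1* and from the same replicate for *elav*. The headers name a fragment length of 200 bp, and 140 bp for *elav* males replicate 3. The deposited pileup is a signal of mean fragments over a peak. The deposited −log10 p and q columns come from the peak caller, and the authors' fold enrichment is a ratio of the pileup to the local background. Although a header line states that no q was computed, the q column is filled and was used as it stands.

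Percent of a gene plus 3 kb flanks under peaks was computed for 18164 genes (transposable elements left out) of Ensembl's BDGP6.54 annotation, which has dm6 coordinates, on 2L, 2R, 3L, 3R, 4 and X. Counts of tags after filtering, from the headers, ran from 2119672 to 6306013 per library. Groups came from sample titles. limma 3.58.1 in R 4.3.3 was fitted with trend to 8 group means over all 31 libraries, and p-values were adjusted by Benjamini-Hochberg within each of 12 comparisons. Replicates are separate pools of flies. The members and gene lists were chosen with earlier results of these data known. Named genes were *Or67d*, *Or47b*, *Or65a* and *Or88a*, all X-linked members, the 5 highest and 5 lowest by female mean, up to 3 called members with the largest change per comparison, the highest and lowest tandem groups and *Orco*. Other called members were added after their values were seen. Alternatives were the body alone, 1 kb around the 5′ end, peaks with p of 0.05 or less, the 10000 peaks of smallest p, scaling to the autosomal mean, an arcsine scale, no filter, a fit of 2 groups, a replicate block and each library left out. Procedures were tested on simulated data. Python 3.11.15, numpy 2.4.6, pandas 2.3.3, biopython 1.88 and matplotlib 3.10.9 were used.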

Additional observations from a re-analysis of the deposited data

Results flagged for a closer look

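In 8 of 95 groups of 4 libraries checked, over 12 genes and the medians of autosomal and X-linked members, 1 library stood far from the other 3 (by Dixon's ratio of gap to range). Chance flags about 1 group in 20, a rate that does not hold for the 3 groups below in which the other libraries were all at 0. *Or47b* had 99.1% in 1-day *fru P1* females replicate 4, where the others had 79.9%, 81.0% and 81.9%. It had 58.0% in 10–12 day males replicate 3, where the others had 20.6%, 21.2% and 22.1%. *Or65b* had 17.1% in 1-day *fru P1* males replicate 1 against 45.6%, 46.3% and 47.7%. *Or67c* had 48.8% in 48hr APF females replicate 3 against 24.0%, 24.0% and 27.6%. *Or10a* had 4.31% in 48hr APF males replicate 3 and *Or7a* had 7.83% in 48hr APF males replicate 2, where the other 3 were at 0. The median over X-linked members was 34.8% in 48hr APF females replicate 1, against 15.0%, 15.0% and 17.2%, and that library also had the highest autosomal median of all genes in its group, 27.8%. It was 6.42% in 10–12 day males replicate 3, where the other 3 were at 0.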

How the results depend on the processing

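Calls between the sexes among X-linked members numbered 13 over 4 comparisons, among autosomal members 1, between stages 27 over 6 comparisons and between cell types 5 over 2. With the gene body alone the X-linked sex, stage and cell type counts were 5, 3 and 1, and within 1 kb of the 5′ end 3, 5 and 0. With peaks of p of 0.05 or less the X-linked, autosomal and cell type counts were 8, 2 and 3. With the 10000 peaks of smallest p the 4 counts were 2, 0, 2 and 1. Scaled to the autosomal mean, the autosomal, stage and cell type counts were 0, 10 and 1. The arcsine scale gave 2 autosomal calls, and a fit of only the 2 groups compared gave 10 between stages. With each library left out in turn the X-linked count ran from 10 to 14, the autosomal count from 0 to 3, the stage count from 16 to 31 and the cell type count from 0 to 7. The cause of these changes was not tested. With the replicate block the counts were 11, 1, 22 and 4. The replicate numbers share no animals and correlations of same-numbered libraries ran from −0.19 to 0.224, so they were not taken as pairs.

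Of the 46 named calls, 14 were kept whichever library was left out, and 6 under at least 7 of the 9 other alternatives: *Or1a*, *Or7a* and *Or9a* between 1-day sexes, *Or9a* between 10–12 day sexes, *Or33c* between 1-day and 10–12 day males and *Or85a* between 48hr APF and 1-day females. Of these 6, only the call of *Or85a* was lost with scaling to the autosomal mean. *Or33a* between 1-day and 10–12 day males reversed, to 0.557 points over the body and 3.06 points within 1 kb of the 5′ end, neither of which was called. No other named call changed direction. The part of depth was not tested, and a value of 0 says only that no peak was called.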
